A study of Mus musculus with 48 samples.

Results

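The genes described here are 8 inhibitory receptor and ectoenzyme genes and 1 transcription factor gene that are commonly read together as the exhaustion programme of T cells: Pdcd1, Ctla4, Lag3, Havcr2, Tigit, Btla, Cd160, Entpd1 and Tox. They were named as a list of symbols, with earlier results of these data known, and make up 9 of the 36854 genes in the deposited count table. All 9 passed the filter on low counts in every comparison. The table covers bulk RNA of 48 mouse sarcomas on the 129/SvJae background. The 32 primary tumours, called p53/MCA sarcomas, arose in the gastrocnemius muscle of p53FL/FL mice aged 6 to 10 weeks that had been injected there with Adeno-Cre, an adenovirus carrying the Cre recombinase, and then with 300 µg of the carcinogen MCA. The 16 allografts all came from 1 cell line of such a tumour, 402230, of which 50000 cells were placed in the same muscle of syngeneic hosts, whose age is not given in the sources used here. They therefore show 1 tumour line in many hosts, whereas each primary tumour arose on its own. Each kind was split into 4 groups, of 8 primary tumours or 4 allografts each. One pair of groups received 200 µg of isotype control antibody and the other pair 200 µg of the anti-PD-1 antibody muDX400, and in each pair the hind limb then received 0 or 20 Gy of X-rays. Tumours were collected 3 days after treatment. The groups given isotype and 0 Gy are called untreated here. Every group thus carries the p53 deletion and an injected antibody, and no group without them was present.

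T cells that meet antigen for a long time lose function step by step, a state called exhaustion, and put several inhibitory receptors on their surface. PD-1 (Pdcd1) binds PD-L1 and PD-L2 and recruits phosphatases to the T cell receptor, CTLA-4 competes with CD28 for CD80 and CD86, LAG-3 binds MHC class II, TIM-3 (Havcr2) binds galectin-9 among other ligands, TIGIT binds the poliovirus receptor PVR, and BTLA and CD160 both bind HVEM, the product of Tnfrsf14. TOX is a nuclear factor needed to establish the exhausted state, and CD39 (Entpd1) breaks down extracellular ATP, the first step to immunosuppressive adenosine. Several of these genes are not restricted to T cells: macrophages and dendritic cells also express Havcr2 and Entpd1, endothelium expresses Entpd1, B cells and dendritic cells express Btla, and natural killer (NK) cells express Lag3, Tigit and Cd160.

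In GRCm38 coordinates, all 9 are protein-coding genes of the GENCODE M21 annotation. They lie at chr1:94038305-94052553 (Pdcd1, minus strand), chr1:60887000-60915832 (Ctla4, plus strand), chr6:124904361-124911705 (Lag3, minus strand), chr11:46454935-46481255 (Havcr2, plus strand), chr16:43648867-43664146 (Tigit, minus strand), chr16:45224315-45257670 (Btla, plus strand), chr3:96798763-96829351 (Cd160, minus strand), chr4:6686353-6991557 (Tox, minus strand) and chr19:40612366-40741602 (Entpd1, plus strand). Cd160, Ctla4 and Tox each overlap 1 other annotated gene (Pdzk1, Rpl18-ps1 and Gm11802) and Entpd1 overlaps 3 (Gm16027, Gm8783 and AC166063.1). The library kit marks strand, but the strand setting of the counting is not given in the sources used here, so reads of such partners may be counted with these genes.

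The promoters of 3 members are shown because the results turn on these genes: Pdcd1, which had the highest slope on T cell RNA in primary tumours, and Ctla4 and Havcr2, which were called higher at 20 Gy in primary tumours with isotype. Each line gives the 250 bases before the RefSeq transcription start, 5′ to 3′ on the strand of the gene, in build GRCm38.p6, at chr1:94052554-94052803 on the minus strand, chr1:60908775-60909024 on the plus strand and chr11:46454681-46454930 on the plus strand. Capitals mark a match, on either strand, to the AP-1 motif TGANTCA, the interferon-gamma activated site TTCNNNGAA or the interferon-stimulated response element core, which is GAAA, any 2 bases and GAAA again.
Pdcd1: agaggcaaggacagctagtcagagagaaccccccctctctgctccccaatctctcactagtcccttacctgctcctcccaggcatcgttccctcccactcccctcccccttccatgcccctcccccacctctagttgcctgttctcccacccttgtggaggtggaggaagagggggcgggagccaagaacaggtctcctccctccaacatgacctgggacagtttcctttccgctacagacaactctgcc
Ctla4: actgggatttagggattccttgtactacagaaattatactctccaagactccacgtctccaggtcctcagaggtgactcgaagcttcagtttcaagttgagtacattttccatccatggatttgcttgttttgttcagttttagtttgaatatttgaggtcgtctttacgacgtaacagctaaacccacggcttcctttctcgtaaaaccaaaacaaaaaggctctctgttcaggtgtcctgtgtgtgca
Havcr2: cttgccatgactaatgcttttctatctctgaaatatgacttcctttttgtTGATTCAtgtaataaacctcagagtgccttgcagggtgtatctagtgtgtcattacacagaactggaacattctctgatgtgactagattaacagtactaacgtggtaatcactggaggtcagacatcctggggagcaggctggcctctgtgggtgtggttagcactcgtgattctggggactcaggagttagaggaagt
RefSeq windows were found for 7 of the 9 members, 9 windows in all; there was none for Lag3 and Tox. The interferon-stimulated response element core was in 0 of the 9 windows, against 2.98% of the 32851 promoter windows of the same length. The interferon-gamma activated site was in 1 window of Cd160, against 7.02% of all windows, and the AP-1 motif was in the Havcr2 window, against 6.75%. The short core of sites for NFAT, the calcium-dependent factor downstream of the T cell receptor, GGAAA, was present in the windows of Pdcd1, Ctla4, Tigit, 1 of the 2 Cd160 starts and 1 of the 2 Entpd1 starts, but 55.6% of all windows hold these 5 bases on one strand or the other. A match is a description of the letters and no evidence of binding.

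Each library held 31810461 to 54008259 counts, and levels are given as CPM, counts scaled to the size of each library with TMM factors. The T cell index is the mean log2 CPM of the 4 CD3 chain genes Cd3d, Cd3e, Cd3g and Cd247. These were detected in all 48 tumours, with a summed level of 5.04 to 23.8 CPM (median 8.20) in untreated primary tumours and 21.3 to 49.6 CPM (median 38.5) in untreated allografts. The 6 macrophage markers of the macrophage index summed to 1565.1 to 3046.2 CPM (median 1816.8) and 1563.3 to 2325.5 CPM (median 1740.1) in the same groups. In bulk RNA, fewer cells of a type and less RNA per cell cannot be told apart. The labels name the tumours of a group as separate samples, and p-values measure the spread between these tumours.

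Per kilobase of exon, Entpd1 and Havcr2 had the highest mean levels of the members in both tumour kinds, and Tox the lowest, over all treatments. In the 16 allografts Entpd1 stood at 18.7 ± 4.89 CPM per kb (mean ± SD) and Havcr2 at 18.6 ± 5.85, followed by Tigit at 8.30 ± 3.45, Pdcd1 at 7.50 ± 4.09, Lag3 at 6.87 ± 2.82 and Ctla4 at 2.72 ± 1.51. Cd160 followed at 1.28 ± 0.829, Btla at 0.762 ± 0.528 and Tox at 0.199 ± 0.126 CPM per kb. The means of Entpd1 and Havcr2 lay within the larger of their SDs of each other. The same held for Tigit, Pdcd1 and Lag3, for Ctla4 and Cd160, and for Cd160 and Btla. The steps from Havcr2 to Tigit, from Lag3 to Ctla4 and from Btla to Tox were wider than either SD. The genes were measured in the same tumours, and these SDs do not measure the spread of their difference within a tumour. In the 32 primary tumours the level was 19.3 ± 10.9 for Entpd1, 10.4 ± 5.29 for Havcr2, 6.15 ± 4.20 for Lag3, 4.99 ± 4.61 for Tigit, 2.44 ± 2.60 for Pdcd1 and 1.59 ± 1.69 for Ctla4. Btla stood at 0.686 ± 0.541, Cd160 at 0.395 ± 0.344 and Tox at 0.290 ± 0.206 CPM per kb, and no step between neighbours in this order exceeded the larger of their SDs. These means and SDs run over all treatments of a kind; the order changed between treatment groups. In unirradiated primary tumours the mean of Tigit lay above that of Lag3, at 2.93 against 2.79 CPM per kb with isotype and 5.81 against 3.35 with anti-PD-1, where Tox (0.388) also lay above Cd160 (0.353). After 20 Gy with isotype Havcr2 lay above Entpd1, at 22.8 against 19.1 in allografts and 13.9 against 13.8 in primary tumours. Among allografts, Pdcd1 lay above Tigit in both unirradiated groups, Lag3 above Pdcd1 in both irradiated groups, and Lag3 above Tigit after 20 Gy with isotype.

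Tumours given the same treatment differed widely in these genes. In primary tumours the SD of log2 CPM within a group was 1.32 for Cd160, 1.29 for Pdcd1, 1.22 for Btla, 1.22 for Ctla4, 1.204 for Tox and 1.06 for Tigit, against a median of 0.49 over all genes tested. Lag3, Havcr2 and Entpd1 varied less, with SDs of 0.67, 0.64 and 0.62. In allografts the same 3 genes again had the lowest SDs, 0.53, 0.37 and 0.32, and Btla the highest at 1.01, with a median over all genes of 0.38.

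**Figure D1:**
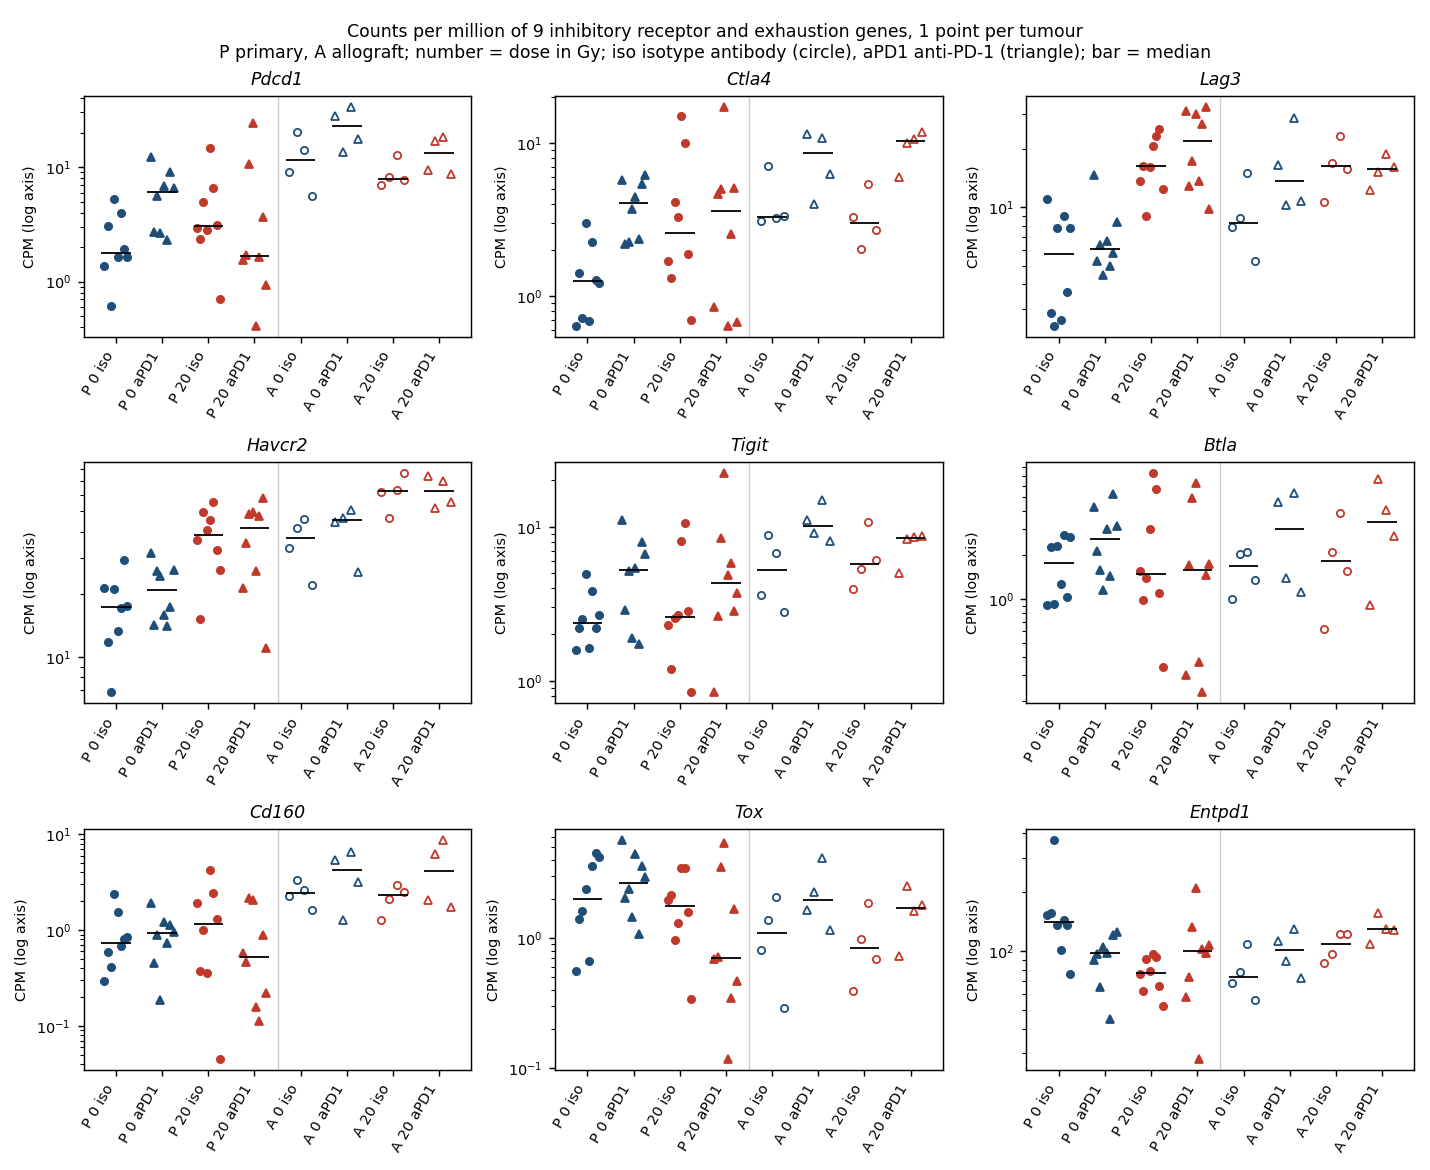
Level of each of the 9 genes in CPM on a log axis, with 1 point per tumour and a bar at the group median, for the 4 primary groups on the left and the 4 allograft groups on the right of each panel. Red points are irradiated tumours. The medians of Lag3 and Havcr2 are higher in both irradiated primary groups, while Pdcd1, Cd160 and Tox spread widely within every primary group and Btla most in the irradiated ones.

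The question of how far each gene's RNA moved with T cell RNA was put to tumours of the same group, in a fit of group, T cell index and macrophage index. A slope of 1 means that a gene doubled with each doubling of the index. In the 32 primary tumours 6 of the 9 members rose with the T cell index, where 4.72% of all genes tested had a slope that passed the test in either direction. Pdcd1 had a slope of 0.96 (SE 0.09, adjusted p = 1.3e-08), Ctla4 of 0.94 (SE 0.12, adjusted p = 4.8e-06) and Cd160 of 0.91 (SE 0.15, adjusted p = 0.00020). Btla followed at 0.83 (SE 0.14, adjusted p = 0.00017), Tigit at 0.80 (SE 0.14, adjusted p = 0.00028) and Tox at 0.66 (SE 0.16, adjusted p = 0.013). The slopes of the remaining 3 members did not pass: Havcr2 had 0.24 (SE 0.11, adjusted p = 0.24), Lag3 0.20 (SE 0.12, adjusted p = 0.39) and Entpd1 0.11 (SE 0.11, adjusted p = 0.67). The 95% interval of the Pdcd1 slope ran from 0.78 to 1.13 and that of Lag3 from -0.03 to 0.43, so they do not meet; the difference between genes was not itself tested. Of the 10 T cell identity genes, which served as a reference for what T cell RNA does in this fit, 10 rose with the index with a median slope of 0.89. The Tox slope was lost without primary tumour 8 of the group given 20 Gy and isotype, at 0.59 (adjusted p = 0.084); the other 5 held without any 1 of the 32 tumours.

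**Figure D2:**
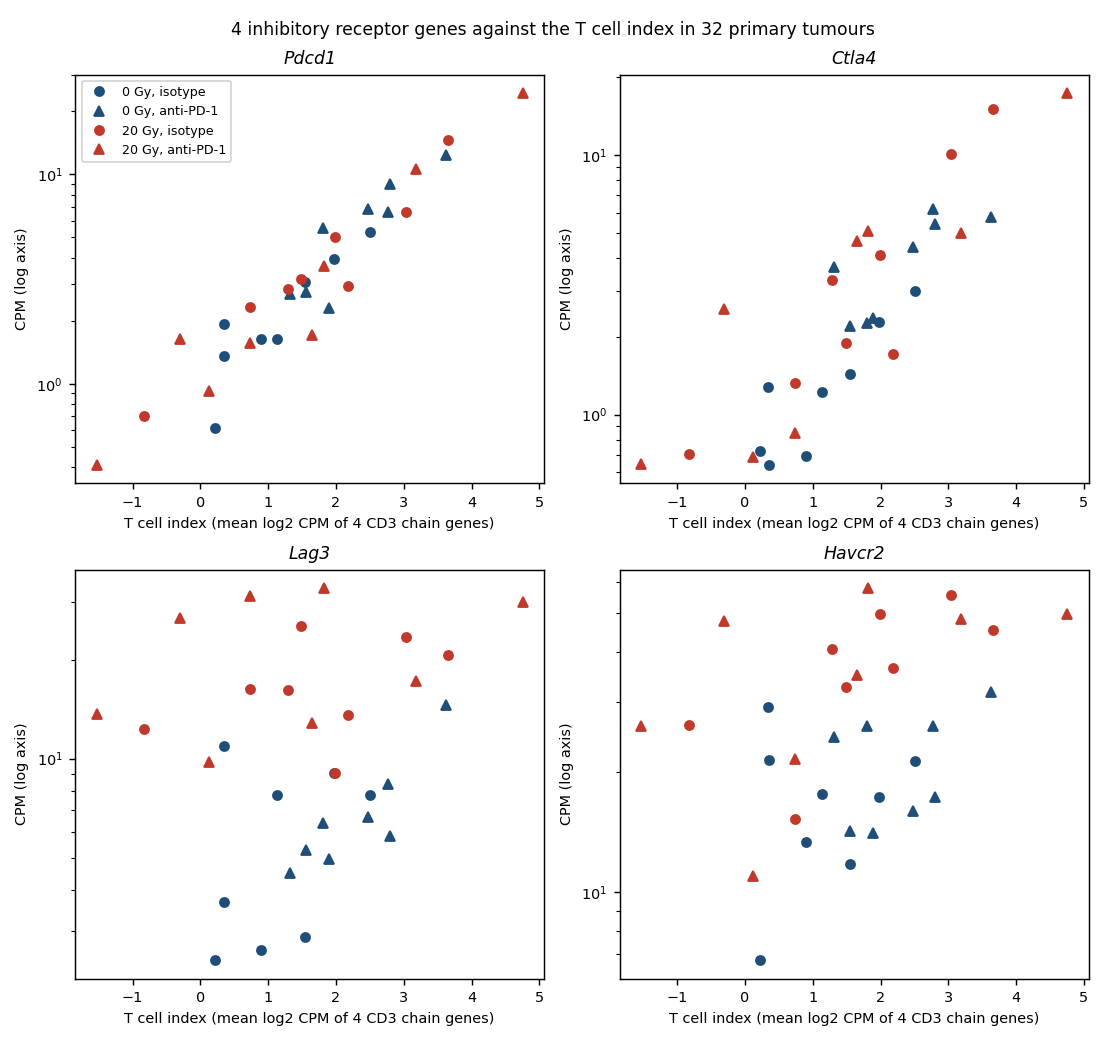
CPM (log axis) of Pdcd1, Ctla4, Lag3 and Havcr2 against the T cell index (mean log2 CPM of 4 CD3 chain genes) in the 32 primary tumours, by dose (colour) and antibody (circle isotype, triangle anti-PD-1). Pdcd1 and Ctla4 rise along the index, while Lag3 and Havcr2 lie mostly higher in irradiated tumours (red) than in unirradiated ones (blue) at the same index.

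In the 16 allografts all 9 slopes on the T cell index were above 0 and 2 passed the test, with 1.08% of genes called. Cd160 had a slope of 1.196 (SE 0.15, adjusted p = 0.0023) and Pdcd1 of 0.74 (SE 0.12, adjusted p = 0.012). Btla at 1.14 (SE 0.29, adjusted p = 0.081), Tigit at 0.62 (SE 0.18, adjusted p = 0.13), Ctla4 at 0.60 (SE 0.21, adjusted p = 0.19) and Lag3 at 0.56 (SE 0.17, adjusted p = 0.15) did not pass after adjustment, although each had an unadjusted p under 0.05, as did Entpd1 at 0.26 (SE 0.10, adjusted p = 0.26); with Cd160 and Pdcd1 that made 7 members, against 14.7% of genes. Havcr2 had a slope of 0.04 (SE 0.14, adjusted p = 0.93) on the T cell index. DESeq2 called 5 members here, and 967 of the 19323 genes it gave an adjusted p, adding Lag3, Tigit and Btla. With an index from 1 gene in place of 4 the Cd160 slope lost its call, at 0.98 (adjusted p = 0.072). Without 1 of 2 allografts, tumour 2 at 0 Gy with anti-PD-1 or tumour 1 at 20 Gy with isotype, the Pdcd1 slope lost its call, at 0.78 (adjusted p = 0.085) and 0.76 (adjusted p = 0.063).

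The slope on the macrophage index beside the T cell index passed for 0 of 9 members in edgeR and in DESeq2, in primary tumours, where 0.568% of genes were called, and in allografts, where 0.710% were. One member in each kind had an unadjusted p under 0.05, against 8.51% of genes in primary tumours and 10.6% in allografts, so these counts are near the background. In allografts it was Havcr2, at 0.54 (SE 0.25, adjusted p = 0.47), and in primary tumours Tigit, at -0.93 (SE 0.33, adjusted p = 0.33). The 2 indices moved together between primary tumours of a group (r = 0.69 over 32 tumours, as a description) and less so in allografts (r = 0.40 over 16), which share library and depth. Left alone in the fit of primary tumours, without the T cell index, the macrophage index had a positive slope that passed for 6 members, Pdcd1 and Ctla4 among them, and in that fit 13.8% of all genes were called.

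**Figure D3:**
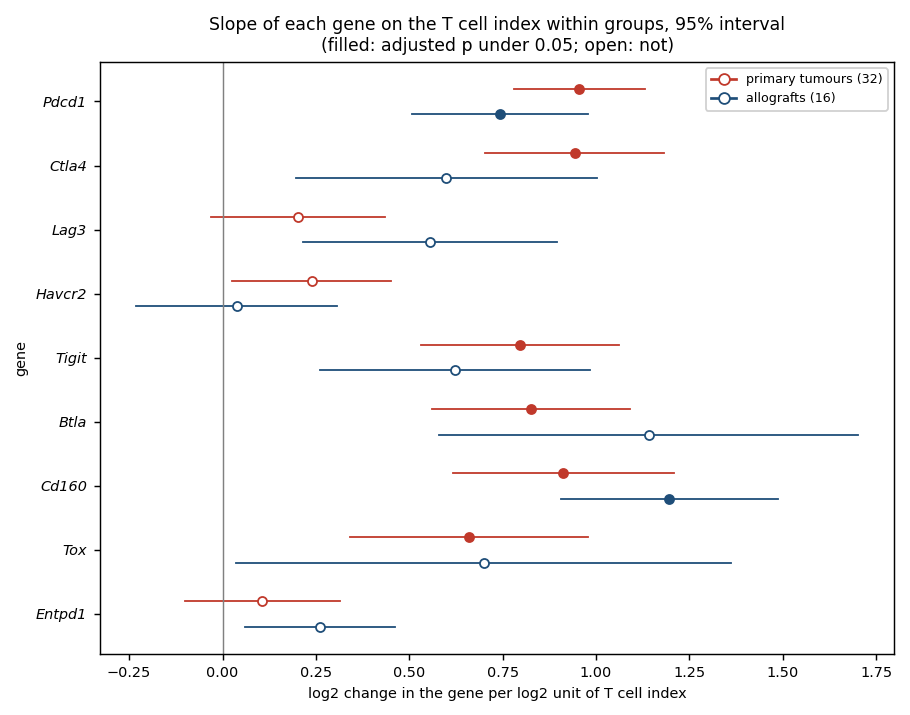
Slope of each gene's log2 level on the T cell index within treatment groups, with its 95% interval, in 32 primary tumours (red) and 16 allografts (blue); filled points passed the test at an adjusted p under 0.05. Pdcd1, Ctla4 and Cd160 lie near 1 in primary tumours, and Lag3, Havcr2 and Entpd1 between 0.11 and 0.24.

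In primary tumours given isotype antibody, 3 of the receptor genes rose and Entpd1 fell after 20 Gy. Lag3 rose 2.93-fold, Ctla4 3.43-fold and Havcr2 2.20-fold, whereas Entpd1 fell to 0.489 of its level. The 4 of 9 members called stand against 14.5% of the 17770 genes tested. The median log2 fold change of the 9 members was 0.64, against -0.02 over all genes tested.

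Lag3, whose product binds MHC class II on antigen-presenting cells, ranged over 2.44 to 10.95 CPM with a median of 5.71 at 0 Gy and over 9.02 to 25.4 CPM with a median of 16.2 at 20 Gy. The groups overlapped in that 1 of the 8 irradiated tumours lay below the highest unirradiated one. The log2 fold change was 1.55 (SE 0.33, adjusted p = 0.0018), and it passed the test in each of the 32 fits that left out 1 tumour (1.44 to 1.76).

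Havcr2, which encodes TIM-3, ranged over 6.78 to 29.1 CPM with a median of 17.5 at 0 Gy and over 15.3 to 55.5 CPM with a median of 38.6 at 20 Gy. In 6 of the 8 irradiated tumours it lay above every unirradiated one. The log2 fold change was 1.14 (SE 0.30, adjusted p = 0.0089), and this call also held in all 32 fits without 1 tumour (1.05 to 1.32).

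Ctla4 ranged over 0.641 to 2.998 CPM with a median of 1.25 at 0 Gy and over 0.703 to 15.1 CPM with a median of 2.59 at 20 Gy. Here 4 irradiated tumours lay above all unirradiated ones and the other 4 lay within their range. The log2 fold change of 1.78 (SE 0.61, adjusted p = 0.048) was close to the threshold, with a 95% interval of 0.58 to 2.98. With no filter on low counts it lost its call, at 1.77 (adjusted p = 0.074). It passed in only 12 of the 32 fits without 1 tumour, and without tumour 5 of the 20 Gy isotype group, which had the highest Ctla4 and Pdcd1 levels of that group, it was 1.27 (adjusted p = 0.18).

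Entpd1, which encodes CD39, went the other way, from 75.8 to 372 CPM with a median of 140.1 at 0 Gy to 52.3 to 96.2 CPM with a median of 77.4 at 20 Gy. Of the 8 unirradiated tumours, 7 lay above every irradiated one. The log2 fold change was -1.03 (SE 0.30, adjusted p = 0.018). It no longer passed without unirradiated tumour 3, which held 372 CPM: the value was then -0.70 (adjusted p = 0.093).

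The remaining 5 members did not pass the test, and their groups overlapped. Pdcd1 ranged over 0.616 to 5.32 CPM with a median of 1.79 at 0 Gy and 0.703 to 14.6 CPM with a median of 3.05 at 20 Gy, a log2 fold change of 0.98 (SE 0.64, adjusted p = 0.32). The interval of -0.27 to 2.24 includes no change as well as a rise of more than 4-fold. Without irradiated tumour 5, whose Pdcd1 was the highest of its group, it was 0.51 (adjusted p = 0.66). The other 4 values were 0.64 (SE 0.63, adjusted p = 0.52) for Cd160, 0.61 (SE 0.58, adjusted p = 0.51) for Btla, 0.54 (SE 0.52, adjusted p = 0.51) for Tigit and -0.30 (SE 0.58, adjusted p = 0.76) for Tox.

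Markers of other cell types were compared between the same groups, where 7.85% of all genes rose. The 4 T cell index genes had a median log2 fold change of 0.79 with 0 of 4 called, and their summed level ranged over 5.04 to 23.8 CPM (median 8.20) at 0 Gy and 2.27 to 53.2 CPM (median 14.2) at 20 Gy. Of the 6 macrophage markers 2 rose, C1qa by 0.84 (SE 0.29, adjusted p = 0.045) and Cd68 by 0.68 (SE 0.21, adjusted p = 0.026) on the log2 scale, and their sum ranged over 1565.1 to 3046.2 CPM (median 1816.8) and 1943.0 to 3962.1 CPM (median 2632.5). Of the 7 NK cell genes 1 rose, Klrk1 by 2.003 (SE 0.60, adjusted p = 0.023), and the sum of the list ranged over 7.13 to 73.2 CPM (median 21.02) and 17.8 to 189 CPM (median 51.5). Markers of B cells had 1 of 6 called, Pax5 at 2.11 (SE 0.59, adjusted p = 0.015), and those of dendritic cells 2 of 6, Ccr7 at 1.40 (SE 0.46, adjusted p = 0.037) and Batf3 at 1.39 (SE 0.41, adjusted p = 0.022). The B cell genes summed to 3.23 to 11.03 CPM (median 4.59) and 6.65 to 19.4 CPM (median 11.7), and the dendritic cell genes to 9.73 to 20.5 CPM (median 17.8) and 12.003 to 55.00 CPM (median 22.2). The cytotoxic effector genes summed to 12.2 to 249 CPM (median 20.97) at 0 Gy and 81.3 to 406 CPM (median 148.8) at 20 Gy. A single gene called in a list of 6 or 7 is not read as a change of the list. No gene of these lists was at 0 in any tumour of the 2 groups. The 6 skeletal muscle genes, a sign of muscle in the specimen, had a median of 2.20 with 0 called, and their sum ranged over 52.03 to 4964.6 CPM (median 1464.3) and 245 to 39187.3 CPM (median 1174.8). The 6 endothelial genes had a median of -0.38 with 0 called, and summed to 230.0 to 607 CPM (median 372) and 192 to 643 CPM (median 258). The part of NK, B, dendritic and endothelial cells in the change of the members was not tested.

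The same contrast was fitted with an index of T cells, macrophages or muscle as a covariate, and these indices differ between the treatment groups themselves. With the T cell index as a covariate the change was 1.45 (adjusted p = 0.0019) for Lag3, 0.98 (adjusted p = 0.015) for Havcr2 and 0.93 (adjusted p = 0.043) for Ctla4. With the macrophage index in its place it was 1.39 (adjusted p = 0.0092) for Lag3, 0.99 (adjusted p = 0.042) for Havcr2 and 0.74 (adjusted p = 0.47) for Ctla4. Lag3 and Havcr2 passed in both fits, and Ctla4 passed with the T cell index and not with the macrophage index or, at 1.45 (adjusted p = 0.10), the muscle index. Entpd1 was -1.22 (adjusted p = 0.0028) with the T cell index and -1.40 (adjusted p = 0.0026) with the macrophage index. As a ratio to the T cell index in each tumour, on the log2 scale, the median of Lag3 went from 1.15 at 0 Gy to 2.16 at 20 Gy and that of Havcr2 from 2.70 to 3.38. The median ratio of Pdcd1 was -0.03 and 0.22, that of Ctla4 -0.84 and 0.17, and that of Entpd1 5.76 and 4.54.

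With anti-PD-1, the same dose contrast in primary tumours called 1 of 9 members, against 7.92% of genes. Lag3 ranged over 4.49 to 14.6 CPM with a median of 6.09 at 0 Gy and over 9.77 to 32.9 CPM with a median of 21.97 at 20 Gy, and rose 3.11-fold (log2 fold change 1.64 (SE 0.33, adjusted p = 0.0029)). In 5 of 8 irradiated tumours it lay above all unirradiated ones, the highest of which, tumour 1, stood apart at 14.6 CPM. The call held in all 32 fits without 1 tumour.

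Havcr2 ranged over 14.1 to 31.7 CPM with a median of 20.97 at 0 Gy and 11.02 to 57.7 CPM with a median of 41.4 at 20 Gy in these tumours, a log2 fold change of 0.82 (SE 0.29, adjusted p = 0.083) that did not pass. Without 1 of 2 irradiated tumours with low Havcr2 it did pass, at 0.96 (adjusted p = 0.030) without tumour 8 and 0.91 (adjusted p = 0.048) without tumour 1. Ctla4 had 0.20 (SE 0.59, adjusted p = 0.88), Pdcd1 -0.09 (SE 0.63, adjusted p = 0.96) and Entpd1 0.13 (SE 0.29, adjusted p = 0.84). Pdcd1 ranged over 2.29 to 12.3 CPM with a median of 6.09 at 0 Gy and 0.411 to 24.5 CPM with a median of 1.67 at 20 Gy, with 5 of the 8 irradiated tumours below every unirradiated one and 1 above. The highest, tumour 4 with 24.5 CPM, also held the highest Ctla4 (17.4 CPM), Tigit (22.3 CPM) and T cell index (4.75) of its group, and the highest macrophage and muscle indices (9.55 and 13.10). Without it the log2 fold change was -1.03 (adjusted p = 0.36) for Pdcd1, -0.52 (adjusted p = 0.69) for Ctla4 and -0.35 (adjusted p = 0.78) for Tigit, which had 0.28 (SE 0.52, adjusted p = 0.80) with it. In this contrast the T cell marker sum ranged over 10.6 to 53.5 CPM (median 20.1) at 0 Gy and 1.25 to 119.4 CPM (median 10.02) at 20 Gy, and the macrophage marker sum over 1354.2 to 2755.3 CPM (median 1896.5) and 764 to 5243.0 CPM (median 2469.7). The NK cell gene sum ranged over 9.15 to 39.8 CPM (median 16.6) and 5.46 to 95.2 CPM (median 30.5), and the cytotoxic effector gene sum over 14.4 to 92.2 CPM (median 38.5) and 12.3 to 302 CPM (median 138.5).

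**Figure D4:**
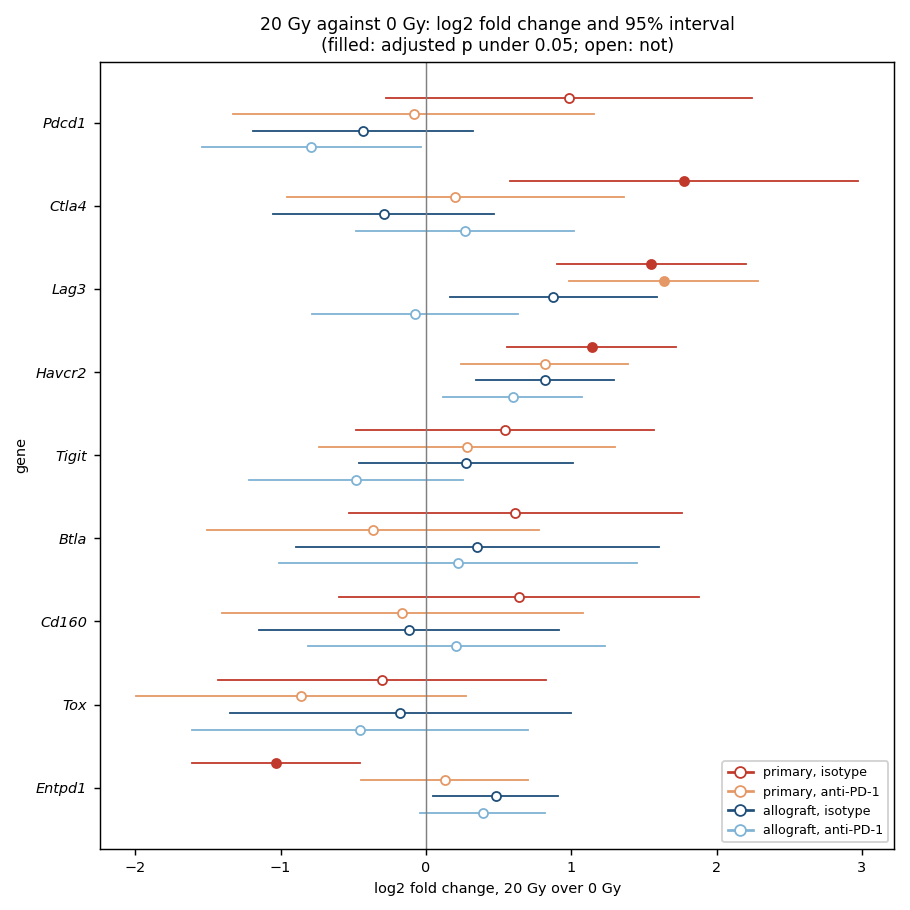
Log2 fold change at 20 Gy over 0 Gy with its 95% interval for each of the 9 genes in primary tumours (red with isotype, orange with anti-PD-1) and allografts (dark blue with isotype, light blue with anti-PD-1); filled points passed at an adjusted p under 0.05. Lag3 is called in both primary contrasts, Ctla4, Havcr2 and Entpd1 in the isotype contrast, and no gene in either allograft contrast.

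Combined treatment of primary tumours, set against the same untreated group as above, called 2 of 9 members, against 13.8% of genes. Lag3 rose 3.74-fold (log2 fold change 1.90 (SE 0.33, adjusted p = 0.00039)) and Havcr2 2.17-fold (1.12 (SE 0.30, adjusted p = 0.011)), and both held in all 32 fits without 1 tumour. Ctla4 had 1.72 (SE 0.61, adjusted p = 0.056), Tigit 1.27 (SE 0.53, adjusted p = 0.10) and Entpd1 -0.64 (SE 0.29, adjusted p = 0.14). Without combined-treated tumour 4, which stood apart in the first 2 of these genes, Ctla4 was 0.996 (adjusted p = 0.28) and Tigit 0.64 (adjusted p = 0.44), Pdcd1 went from 1.22 (SE 0.65, adjusted p = 0.21) to 0.27 (adjusted p = 0.81), and without untreated tumour 3 Entpd1 was -0.31 (adjusted p = 0.49). DESeq2 called Ctla4 here as well, at an adjusted p of 0.018, and 15.7% of genes. With the T cell index as covariate 5 members passed, against 15.0% of genes, with Tox lower at -1.54 (adjusted p = 0.0062), Ctla4 higher at 1.11 (adjusted p = 0.013) and Entpd1 lower at -0.83 (adjusted p = 0.036), and the median ratio of Tox to the T cell index was -0.57 in untreated and -1.14 in combined-treated tumours on the log2 scale. Leaving out 1 tumour added Ctla4 in 6 of 32 fits, Tigit without combined-treated tumour 1, at 1.47 (adjusted p = 0.045), and Entpd1 without combined-treated tumour 4, at -0.88 (adjusted p = 0.045). The macrophage marker sum ranged over 1565.1 to 3046.2 CPM (median 1816.8) in untreated and 764 to 5243.0 CPM (median 2469.7) in combined-treated tumours, the T cell marker sum over 5.04 to 23.8 CPM (median 8.20) and 1.25 to 119.4 CPM (median 10.02), the NK cell gene sum over 7.13 to 73.2 CPM (median 21.02) and 5.46 to 95.2 CPM (median 30.5), and the cytotoxic effector gene sum over 12.2 to 249 CPM (median 20.97) and 12.3 to 302 CPM (median 138.5). The 6 muscle genes had a median log2 fold change of 2.84 with 0 called, and 1 of the 6 dendritic cell genes was at 0 in a combined-treated tumour.

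In allografts given isotype antibody, 0 of 9 members passed the dose contrast in edgeR, against 5.14% of genes. At an unadjusted p under 0.05 there were 3, against 18.2% of genes, and DESeq2 called 1, against 7.62%. The first digit of the sample identifiers, whose meaning is not given, was 4 in 0 of 4 allografts at 0 Gy and 3 of 4 at 20 Gy. Havcr2 was 22.3, 33.2, 41.7 and 45.8 CPM at 0 Gy and 46.5, 61.97, 63.1 and 76.4 CPM at 20 Gy. The groups did not overlap, which held for this 1 member and for 14.3% of all genes. Its log2 fold change was 0.82 (SE 0.24, adjusted p = 0.067), and DESeq2 called it at an adjusted p of 0.039.

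Lag3 was 5.25, 7.87, 8.75 and 15.02 CPM at 0 Gy and 10.7, 15.7, 16.8 and 23.3 CPM at 20 Gy, with 3 of 4 irradiated allografts above all unirradiated ones. Its log2 fold change was 0.88 (SE 0.36, adjusted p = 0.21), and 0.97 (adjusted p = 0.032) with the T cell index as covariate, a fit that called 2 of 9 members, against 7.40% of genes. Entpd1 was 55.9, 68.9, 78.3 and 109.1 CPM at 0 Gy and 86.7, 96.2, 121.4 and 122.7 CPM at 20 Gy, at 0.48 (SE 0.22, adjusted p = 0.26), against a fall in primary tumours. Pdcd1 was 5.58, 9.02, 14.2 and 20.4 CPM at 0 Gy and 6.99, 7.70, 8.15 and 12.8 CPM at 20 Gy, and Ctla4 3.13, 3.24, 3.36 and 7.08 CPM and 2.03, 2.71, 3.29 and 5.43 CPM; both overlapped, at -0.43 (SE 0.39, adjusted p = 0.62) and -0.29 (SE 0.39, adjusted p = 0.76). The 6 macrophage markers had a median log2 fold change of 0.90 with 1 called, and their sum ranged over 1563.3 to 2325.5 CPM (median 1740.1) and 2759.6 to 4524.5 CPM (median 3056.1), without overlap. The 7 NK cell genes had a median of 1.32 with 2 called, and summed to 16.3 to 37.98 CPM (median 28.01) and 43.00 to 71.5 CPM (median 55.7), again without overlap. The 7 cytotoxic effector genes had a median of 0.92 with 2 called, and their sums of 35.5 to 155 CPM (median 108.4) and 226 to 359 CPM (median 289.6) did not overlap either. Of all single genes 14.3% did not overlap in this contrast, and no such share was computed for sums. A sum follows its most abundant genes and is not read as a change of the whole list. The T cell marker sum ranged over 21.3 to 49.6 CPM (median 38.5) and 20.2 to 51.2 CPM (median 30.8). The part of these cells in the values of the members was not tested.

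With anti-PD-1, the dose contrast in allografts again called 0 of 9 members in edgeR and in DESeq2, against 3.96% of genes, and 1 had an unadjusted p under 0.05, against 19.5% of genes. That was Havcr2, at 25.7, 44.4, 46.3 and 50.99 CPM without and 51.7, 55.6, 70.3 and 73.7 CPM with irradiation, which did not overlap, as for 9.22% of all genes. Its log2 fold change was 0.60 (SE 0.24, adjusted p = 0.19). Pdcd1 was 13.6, 17.7, 28.1 and 33.8 CPM at 0 Gy and 8.80, 9.49, 17.1 and 18.2 CPM at 20 Gy, at -0.79 (SE 0.39, adjusted p = 0.28), and was called lower with the T cell index as covariate, at -0.71 (adjusted p = 0.032), against 7.88% of genes. The macrophage marker sum ranged over 1191.7 to 2918.1 CPM (median 2344.5) at 0 Gy and 2733.4 to 5268.4 CPM (median 4058.7) at 20 Gy, and the T cell marker sum over 33.2 to 102.9 CPM (median 69.4) and 31.6 to 101.6 CPM (median 65.1). The NK cell genes summed to 26.96 to 58.04 CPM (median 46.9) and 63.4 to 144.7 CPM (median 91.9) and the cytotoxic effector genes to 100.7 to 265 CPM (median 198) and 293 to 654 CPM (median 390.1), both without overlap. How often other sums do not overlap was not computed here either.

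Combined treatment of allografts called 2 of 9 members, against 9.66% of genes, and all 9 log2 fold changes were above 0 with a median of 0.76 against -0.04 over all genes. Entpd1 went from 55.9, 68.9, 78.3 and 109.1 CPM in untreated to 108.8, 128.2, 129.6 and 157 CPM in combined-treated allografts and rose 1.67-fold (0.74 (SE 0.22, adjusted p = 0.046)). Havcr2 rose 1.76-fold (0.81 (SE 0.24, adjusted p = 0.048)), with all 4 combined-treated allografts above all untreated ones, as for 14% of genes. Both calls sat at the threshold: leaving out 1 of the 16 allografts kept Havcr2 in 2 fits and Entpd1 in 7. Ctla4 had 1.21 (SE 0.39, adjusted p = 0.065) and was called by DESeq2, at an adjusted p of 0.022, as were 12.7% of genes, and by edgeR in 4 of the 16 fits without 1 allograft. With the macrophage index as covariate Havcr2 was 0.21 (adjusted p = 0.97) and Entpd1 0.18 (adjusted p = 0.97). That fit called 0 of 17746 genes in edgeR, with 1169 at an unadjusted p under 0.05. The index ran from 7.69 to 8.37 in untreated and from 8.66 to 9.52 in combined-treated allografts. Without overlap in the index, the fit cannot separate treatment from macrophage RNA. The macrophage marker sum ranged over 1563.3 to 2325.5 CPM (median 1740.1) and 2733.4 to 5268.4 CPM (median 4058.7) in these groups, the NK cell gene sum over 16.3 to 37.98 CPM (median 28.01) and 63.4 to 144.7 CPM (median 91.9), and the T cell marker sum over 21.3 to 49.6 CPM (median 38.5) and 31.6 to 101.6 CPM (median 65.1).

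Anti-PD-1 alone called 0 of 9 members in either tumour kind, in edgeR and in DESeq2, and edgeR called 0 genes in these 4 contrasts, while DESeq2 called 3 genes in unirradiated and 1 in irradiated primary tumours and 0 in allografts. In unirradiated allografts all 9 members had a log2 fold change above 0, with a median of 0.91. At an unadjusted p under 0.05, 4 members passed, against 1.68% of genes. These were Tigit at 0.96 (SE 0.38, adjusted p = 1.0), Ctla4 at 0.94 (SE 0.39, adjusted p = 1.0), Pdcd1 at 0.91 (SE 0.39, adjusted p = 1.0) and Lag3 at 0.83 (SE 0.36, adjusted p = 1.0). Pdcd1, the gene of the receptor the antibody binds, was 5.58, 9.02, 14.2 and 20.4 CPM with isotype and 13.6, 17.7, 28.1 and 33.8 CPM with anti-PD-1, and the groups overlapped. The 4 T cell index genes had a median of 0.89 in the same contrast, and their summed level ranged over 21.3 to 49.6 CPM (median 38.5) and 33.2 to 102.9 CPM (median 69.4). The median ratio of Pdcd1 to the T cell index was 0.43 with isotype and 0.56 with anti-PD-1, and that of Ctla4 -0.87 and -0.84, on the log2 scale.

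After 20 Gy, 1 member in allografts had an unadjusted p under 0.05 for the antibody, against 3.84% of genes. Ctla4 was 2.03, 2.71, 3.29 and 5.43 CPM with isotype and 6.06, 10.1, 10.6 and 11.9 CPM with anti-PD-1. The groups did not overlap, as for 1.49% of genes, and the log2 fold change was 1.5004 (SE 0.39, adjusted p = 0.68). The T cell marker sum ranged over 20.2 to 51.2 CPM (median 30.8) with isotype and 31.6 to 101.6 CPM (median 65.1) with anti-PD-1 in these groups, and the 4 T cell index genes had a median log2 fold change of 0.85 with 0 called. In unirradiated primary tumours 2 members had an unadjusted p under 0.05, against 2.32% of genes: Ctla4 at 1.52 (SE 0.61, adjusted p = 1.0) and Entpd1 at -0.77 (SE 0.29, adjusted p = 1.0). Without untreated tumour 3, with 372 CPM, Entpd1 was -0.44 (adjusted p = 1.0). Ctla4 ranged over 0.641 to 2.998 CPM with a median of 1.25 with isotype and 2.19 to 6.20 CPM with a median of 4.06 with anti-PD-1, and Pdcd1 over 0.616 to 5.32 CPM with a median of 1.79 and 2.29 to 12.3 CPM with a median of 6.09. The T cell marker sum ranged over 5.04 to 23.8 CPM (median 8.20) and 10.6 to 53.5 CPM (median 20.1) in these groups. In irradiated primary tumours 0 members reached an unadjusted p under 0.05 for the antibody, against 8.12% of genes; the interval for Lag3 was -0.28 to 0.98 and that for Havcr2 -0.60 to 0.55 on the log2 scale.

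Tests of the difference between effects called 0 of 9 members in each of 6 comparisons, in edgeR and in DESeq2. Between dose and antibody, the interaction in primary tumours gave 1 member with an unadjusted p under 0.05, against 4.25% of genes, Entpd1 at 1.16 (SE 0.42, adjusted p = 0.97); in allografts there was 0, against 1.52%. Ctla4, called with isotype and not with anti-PD-1 in primary tumours, had an interaction of -1.57 (SE 0.84, adjusted p = 0.97), so its effects are not shown to differ. Between tumour kinds, the dose effect with isotype gave 0 called of 9, against 0.00517% of genes, and 2 at an unadjusted p under 0.05, against 9.90%. The primary log2 fold change minus that of allografts was -1.5004 (SE 0.46, adjusted p = 0.46) for Entpd1 and 2.08 (SE 0.92, adjusted p = 0.49) for Ctla4. With anti-PD-1 the difference in dose effect was 1.71 (SE 0.54, adjusted p = 0.85) for Lag3, the 1 member with an unadjusted p under 0.05, against 4.77% of genes. For the antibody at 0 Gy 1 member reached this level, against 0.755% of genes, Entpd1 at -1.14 (SE 0.45, adjusted p = 1.0). For combined treatment it was 2, against 6.41%, Entpd1 at -1.40 (SE 0.46, adjusted p = 0.57) and Lag3 at 1.13 (SE 0.54, adjusted p = 0.76).

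With isotype and no irradiation, primary tumours held less Pdcd1, Ctla4 and Havcr2 RNA than allografts. These 3 of the 9 members were called, against 10.0% of genes called. Pdcd1 was 5.58, 9.02, 14.2 and 20.4 CPM in allografts and ranged over 0.616 to 5.32 CPM with a median of 1.79 in primary tumours, a log2 difference of -2.33 (SE 0.48, adjusted p = 0.0096). Ctla4 was 3.13, 3.24, 3.36 and 7.08 CPM and 0.641 to 2.998 CPM with a median of 1.25, at -1.57 (SE 0.43, adjusted p = 0.035). These 2 genes did not overlap between the kinds, as for 7.62% of all genes. Havcr2 was 22.3, 33.2, 41.7 and 45.8 CPM in allografts and ranged over 6.78 to 29.1 CPM with a median of 17.5 in primary tumours, with overlap, at -1.05 (SE 0.31, adjusted p = 0.047). DESeq2 called 6 members, against 14.3% of genes, adding Tigit and Cd160 as lower and Entpd1 as higher in primary tumours.

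The T cell markers differed in the same direction: all 4 index genes were lower in primary tumours, with a median of -1.71, and their sum ranged over 5.04 to 23.8 CPM (median 8.20) against 21.3 to 49.6 CPM (median 38.5) in allografts. With the T cell index as covariate 0 members passed, against 0.789% of genes, and Pdcd1 was -0.47 (adjusted p = 0.77), Ctla4 -0.25 (adjusted p = 0.90) and Havcr2 -0.80 (adjusted p = 0.65). The index itself ran from 0.21 to 2.51 in primary tumours and from 2.29 to 3.46 in allografts. With so little overlap this fit cannot separate tumour kind from T cell RNA. Mean levels were 1.77 CPM in primary tumours and 1.63 CPM in allografts for Btla, 2.36 CPM in primary tumours and 1.13 CPM in allografts for Tox and 5.89 CPM in primary tumours and 9.22 CPM in allografts for Lag3. Relative to the T cell index all 3 lay higher in primary tumours, whereas the mean CPM of Lag3 was the lower there: the median log2 ratio was -2.32 in allografts and -0.37 in primary tumours for Btla, -2.98 and -0.57 for Tox, and 0.15 and 1.15 for Lag3. This was not particular to them: it was 3.36 and 5.76 for Entpd1, -0.69 and 0.14 for Tigit and 2.17 and 2.70 for Havcr2. For Cd160 it was -1.64 and -1.31 and for Ctla4 -0.87 and -0.84. Only Pdcd1 had the lower median ratio in primary tumours, at 0.43 and -0.03. Tumour kind is confounded with the cell line in this contrast, so the 2 cannot be told apart. It is also confounded with the first digit of the sample identifiers, whose meaning the labels do not give. That digit was 4 in 8 of 8 primary tumours and 0 of 4 allografts. The Ctla4 and Havcr2 calls were lost in 9 of the 12 fits without 1 tumour, and the Pdcd1 call in 1, without allograft 2, at -1.99 (adjusted p = 0.050).

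Of 11 genes for ligands of these receptors 6 rose at 20 Gy in primary tumours with isotype, against 7.85% of all genes, with a median log2 fold change of 1.21 against -0.02 over all genes. Cd274, which encodes PD-L1, the ligand of PD-1, went from 3.18 to 20.5 CPM (median 5.67) at 0 Gy to 31.8 to 103.3 CPM (median 52.2) at 20 Gy. The groups did not overlap, as for 1.94% of all genes, and the log2 fold change was 2.90 (SE 0.42, adjusted p = 5.6e-05). The second PD-1 ligand gene, Pdcd1lg2, rose by 2.26 (SE 0.60, adjusted p = 0.010). The CTLA-4 ligand genes Cd80 and Cd86 rose by 2.21 (SE 0.34, adjusted p = 7.7e-05) and 1.503 (SE 0.30, adjusted p = 0.0011). Lgals9, which encodes galectin-9, a ligand of TIM-3, rose by 1.21 (SE 0.28, adjusted p = 0.0034), and Tnfrsf14, which encodes the BTLA and CD160 ligand HVEM, by 1.28 (SE 0.33, adjusted p = 0.0083).

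The TIGIT ligand genes did not pass, with 0.21 (SE 0.21, adjusted p = 0.52) for Pvr, -0.14 (SE 0.34, adjusted p = 0.82) for Nectin2 and -0.39 (SE 0.21, adjusted p = 0.21) for Nectin3, nor did the LAG-3 ligand gene Fgl1 at 0.70 (SE 0.94, adjusted p = 0.65) or Lgals3 at 0.80 (SE 0.32, adjusted p = 0.085). With anti-PD-1, 5 of the 11 rose at 20 Gy in primary tumours, against 6.06% of all genes, Cd274 by 2.28 (SE 0.41, adjusted p = 0.00099) and Cd80 by 1.63 (SE 0.33, adjusted p = 0.0028). In allografts 2 of 11 rose with isotype, against 4.40% of all genes, Cd274 by 1.75 (SE 0.40, adjusted p = 0.021), and 2 with anti-PD-1, against 3.13%, where Cd274 had 1.28 (SE 0.40, adjusted p = 0.085). Within groups of primary tumours Pdcd1lg2 had a slope of 0.84 (SE 0.12, adjusted p = 2.9e-05) on the T cell index and Cd274 one of 0.40 (SE 0.11, adjusted p = 0.024).

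**Figure D5:**
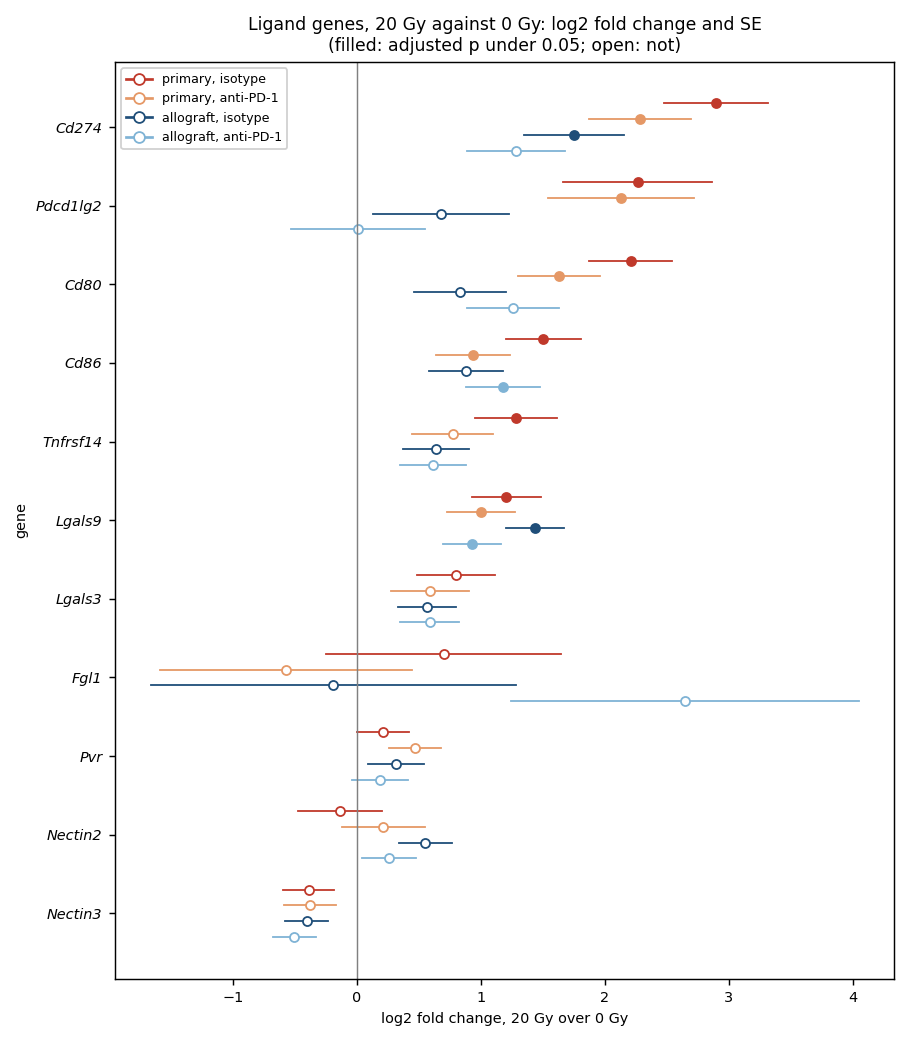
Log2 fold change at 20 Gy over 0 Gy with its SE for 11 ligand genes of the receptors, ordered by their change in primary tumours with isotype; red and orange are primary tumours with isotype and anti-PD-1, dark and light blue allografts with isotype and anti-PD-1, and filled points passed at an adjusted p under 0.05. Cd274 has the highest value in both primary contrasts and lies above 0 in all 4.

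Other genes of the programme were read from lists, beside the 7.85% of all genes that rose in primary tumours with isotype, the 6.64% that fell and the median of -0.02 over all genes. Of 11 further inhibitory receptor genes 3 rose at 20 Gy in primary tumours with isotype and the median was 0.91: Cd200r1, an inhibitory receptor mainly of myeloid cells, by 1.503 (SE 0.27, adjusted p = 0.00040), Lilrb4a, a myeloid receptor too, by 2.10 (SE 0.49, adjusted p = 0.0042), and Pilra by 1.60 (SE 0.34, adjusted p = 0.0017). In allografts with isotype, where 4.40% of all genes rose, 3 of the 11 rose, with Pilra at 1.69 (SE 0.36, adjusted p = 0.016). Of 11 genes for transcription in exhausted and memory-like T cells 3 rose in primary tumours with isotype: Slamf6, a surface marker of the memory-like state, by 1.94 (SE 0.42, adjusted p = 0.0022), Batf, a factor induced by T cell receptor signals, by 1.52 (SE 0.39, adjusted p = 0.0079), and Id2 by 0.71 (SE 0.24, adjusted p = 0.045). Tcf7, which encodes the factor TCF-1 of memory-like cells, had 0.06 (SE 0.34, adjusted p = 0.93), and the relative of Tox in the list, Tox2, had 0.63 (SE 0.55, adjusted p = 0.47).

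Of the 6 phosphatase and adaptor genes 1 rose in each tumour kind with isotype, which is not read as a change of the list. It was Ptpn6, which encodes SHP-1, a phosphatase that several inhibitory receptors recruit, by 1.14 (SE 0.27, adjusted p = 0.0047) in primary tumours and 1.45 (SE 0.34, adjusted p = 0.022) in allografts with isotype. Ptpn11, which encodes SHP-2, had -0.21 (SE 0.12, adjusted p = 0.24) in primary tumours. Of the 9 other genes of ATP and adenosine handling 1 fell, Entpd5, an intracellular relative of Entpd1, at -0.59 (SE 0.13, adjusted p = 0.0022); Nt5e, which encodes CD73, the enzyme after CD39, had -0.08 (SE 0.45, adjusted p = 0.92). Among 7 cytotoxic effector genes Gzma and Gzmb, granule proteases of NK cells and cytotoxic T cells, rose by 2.33 (SE 0.72, adjusted p = 0.026) and 2.002 (SE 0.61, adjusted p = 0.025). Among 8 genes of regulatory T cells and costimulation Il2ra and Tnfrsf18 rose by 2.13 (SE 0.46, adjusted p = 0.0019) and 1.53 (SE 0.49, adjusted p = 0.035), while Foxp3, the defining factor of regulatory T cells, which also carry CTLA-4 and CD39, had 0.81 (SE 0.63, adjusted p = 0.41).

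For each member, the 3 genes whose level followed it most closely over the 32 primary tumours were found by Spearman's rho of log2 CPM. All treatments are pooled here and the values share library and depth, so they are a description. Pdcd1 was most like Cd3g (0.95), Gimap3 (0.93) and Zap70 (0.93), of which Cd3g and Zap70 belong to the T cell receptor machinery. Ctla4 was most like the costimulatory receptor gene Icos (0.98), then Cd2 (0.91) and Gimap3 (0.90). Tigit was most like Cd28 (0.81), Il18r1 (0.78) and Carmil2 (0.78).

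Lag3 was most like Galnt6 (0.87), the chemokine receptor gene Ccr3 (0.87) and Itgb2 (0.83), the beta-2 integrin of all leukocytes. Havcr2 was most like Dpep2 (0.86), Gm46224 (0.83) and Ostm1 (0.82). Btla was most like the dendritic cell growth factor receptor gene Flt3 (0.92), Cxcr3 (0.92) and H2-Oa (0.91), and Cd160 was most like Ctsw (0.92), a protease gene of NK and cytotoxic T cells, Skap1 (0.90) and Sh2d1a (0.89). Tox was most like Itgae (0.86), which encodes CD103, Neu3 (0.82) and Tcrg-C2 (0.81), a gamma chain gene of the T cell receptor. Entpd1 had the lowest likeness to any gene, with 6430548M08Rik (0.79), Paqr7 (0.68) and Colgalt2 (0.66). Among the members, rho was 0.86 between Pdcd1 and Ctla4, 0.69 between Lag3 and Havcr2, 0.20 between Pdcd1 and Lag3 and 0.23 between Pdcd1 and Entpd1.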

How the data were processed

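Messenger RNA of 48 tumours was measured by bulk RNA-seq with the KAPA stranded kit on extracts with a RIN above 7, per the labels' protocols. The authors deposited 1 table of raw counts per gene for 36854 genes, of a first sequencing run. Further runs were not used here. Trimmomatic 0.36, STAR 5.5.4b, HTSeq and the build mm10 are named in the submitters' processing notes. Gene symbols came from GENCODE M21 (GRCm38), which named 36796 of the 36854 genes. Totals ran from 31810461 to 54008259 counts per tumour, which limits precision at low counts, as for Cd160 and Tox (medians of 58 and 68 counts).

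The counts were tested here with the quasi-likelihood test of edgeR 4.0.16 (R 4.3.3) after TMM scaling and the filterByExpr filter. The 4 groups of a tumour kind were fitted together, the comparison of untreated kinds used its 2 groups, and differences between kinds used all 48 tumours. Benjamini-Hochberg adjustment ran over all genes tested, and an adjusted p under 0.05 was called. SE is the log2 fold change divided by the root of the F statistic, and intervals are 1.96 SE either way. The T cell, macrophage and muscle indices are means of log2 CPM (prior count 2), and slopes were fitted with group, T cell index and macrophage index. The steps were tested on simulated data. For dose with isotype, 28.6% of simulated log2 changes of size 1 and 64.3% of those of size 2 were recovered in allografts. In primary tumours the shares were 54.1% and 85.7%. DESeq2 1.42.0, its size factors, no filter, other sets of samples, index covariates and leaving out each tumour were alternatives. The first digit of the sample identifiers, whose meaning the labels do not give, was a covariate for allografts and for differences between kinds. Replicate numbers follow accession order and pair no samples. Within groups, no library was a copy of another: over the 136 pairs, chi-square divided by its degrees of freedom was at least 93.6.

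The members and gene lists were chosen with earlier results of these data known. Named list genes were the 2 with the lowest p among those called in each direction in primary tumours with isotype, and other list genes were named for their role after their values were seen. Likeness was ranked by Spearman's rho over primary tumours. Promoter windows came from RefSeq (GRCm38.p6).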

Additional observations from a re-analysis of the deposited data

Results flagged for a closer look

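Of 72 scans of a gene in a group, in 8 the highest or lowest tumour had a gap to its neighbour above the 95% critical value of Dixon's test, in 6 tumours. The nominal rate of 1 in 20 holds for normal and independent values. CPM of several genes in the same tumours need not meet this, so no excess is read from the count. Primary tumour 4 given 20 Gy and anti-PD-1 stood apart in 3 genes, with 24.5 CPM of Pdcd1, 17.4 CPM of Ctla4 and 22.3 CPM of Tigit. Its T cell, macrophage and muscle indices of 4.75, 9.55 and 13.10 were also the highest of its group.

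Primary tumour 5 given 20 Gy and isotype held 14.6 CPM of Pdcd1, against 6.63 CPM in the next tumour. Primary tumour 1 given 0 Gy and anti-PD-1 held 14.6 CPM of Lag3, against 8.40 CPM in the next. Primary tumour 3 given 0 Gy and isotype held 372 CPM of Entpd1, against 157 CPM in the next. Among allografts, tumour 2 given 0 Gy and isotype held 7.08 CPM of Ctla4, against 3.36 CPM in the next, and tumour 1 given 20 Gy and anti-PD-1 had 4.99 CPM of Tigit, against 8.33 CPM in the nearest.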

How the results depend on the processing

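No paired analysis was possible because the labels give the tumours no shared replicate numbers: the numbers used here follow accession order. Lag3 in the 3 contrasts of irradiated with unirradiated primary tumours, and Havcr2 with isotype and in the combined contrast, were called under all 8 alternatives and in all 32 fits without 1 tumour. Among values called in either fit, the sign changed in 4, all slopes on the macrophage index in primary tumours with the T cell index left out: 1.74 for Pdcd1, 1.37 for Ctla4, 1.40 for Btla and 1.48 for Cd160. That setting raised the members called from 0 to 6 and the share of all genes called from 0.568% to 13.8%, and the cause was not tested. The sign also changed in values called in neither fit, 33 of 153 values with the T cell index as covariate, 23 of 153 with the macrophage index, 8 of 153 with the muscle index, 9 of 90 with the first identifier digit, 5 more slopes with the other index left out, 1 of 36 slopes with an index from 1 gene, 1 with all 48 tumours in 1 fit, 2 of 90 with only the 2 groups, 2 of 189 with no filter, 3 of 189 with DESeq2, 3 of 189 with its size factors and 164 of 5292 fits without 1 tumour.

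Counts of members called moved by over 1.5 times as follows, with the number of all genes called in the same fit in parentheses. In allografts with isotype the dose contrast, 0 as reported (912), gave 1 with DESeq2 (1458) and 2 with the T cell index (1314), and with anti-PD-1, 0 as reported (703), it gave 1, Pdcd1, with the T cell index (1399). The combined contrast in allografts, 2 as reported (1714), gave 0 with all 48 tumours in 1 fit (851), with only its 2 groups (1075), and with the T cell (1094), macrophage (0) or muscle index (1666), and 1 with the first identifier digit (1774). In primary tumours with anti-PD-1 the dose contrast, 1 as reported (1407), gave 2 with all 48 tumours (2156), the T cell index (3010) or the macrophage index (939). The combined contrast, 2 as reported (2446), gave 5 with the T cell index (2658) and 4 with the macrophage index (1725). The comparison of kinds, 3 as reported (1738), gave 6 with DESeq2 (3012) and 0 with the T cell index (0.789% of genes). The slope on the T cell index in allografts, 2 as reported (191), gave 5 with DESeq2 (967), 5 without the macrophage index (629) and 4 with an index from 1 gene (234). Smaller moves were also seen. Dose in primary tumours with isotype, 4 as reported, gave 3 with no filter (2084), the macrophage index (1561) or the muscle index (2479), against 2575 genes as reported, with Ctla4 lost each time. The combined contrasts gave 3 with DESeq2 (3537 in primary tumours, 2518 in allografts), in primary tumours also with its size factors (2499), all 48 tumours (3636) or the muscle index (2426). The comparison of kinds gave 2 with no filter (1465) or the macrophage index (1446), and the slope on the T cell index in primary tumours, 6 as reported (839), gave 7 without the macrophage index (3885). Between kinds, Ctla4 and Havcr2 were each called in 4 of 7 alternatives and Pdcd1 in 6. The cause of these shifts was not tested.

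Without 1 tumour in turn, counts of members called ran from 2 to 4 for dose in primary tumours with isotype, 1 to 2 with anti-PD-1, 2 to 4 combined, 0 to 1 for dose in allografts with isotype, 0 to 2 combined, and 0 to 5 between kinds. For slopes on the T cell index they ran from 5 to 6 in primary tumours and from 1 to 3 in allografts, and they were 0 to 0 for the other 13 comparisons and slopes. Of the mean levels recomputed under other scalings, 0 moved by 1 SD or more. Groups of 4 allografts and low counts of Btla, Cd160 and Tox limit what these contrasts can show.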
